A study of Mus musculus with 18 samples.

Results

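Maturation of the wild-type (WT) mouse heart between 1 and 2 weeks after birth was described from 6 whole hearts, 3 at 1 week and 3 at 2 weeks of age, out of 18 hearts in the series. The study compared Lmna-/- mice (homozygous for the Lmna tm1Stw allele on a C57BL/6 background), which lack normal A-type lamins and develop cardiomyopathy, with their WT littermates at ages of 1 month and of 1 or 2 weeks. All 6 hearts described here came from WT littermates, for which the labels name no treatment, and RNA was taken from the entire organ with no sorting of cells. The 6 libraries were chosen by their labels and not by measured values. Counts of the 2 ages stood in 2 separate tables of 47069 genes, which were joined by gene identifier. After 37 genes of the mitochondrial genome and 6660 processed pseudogenes (intronless copies of messenger RNAs in the genome) were left out, 12661 genes exceeded 5 counts in all 6 hearts and were tested. The labels do not say more of the hearts than that they are separate samples, so p-values measure the spread between these samples. Age and count table changed together in all 6 hearts, so that a difference between ages and a difference between tables cannot be told apart.

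The heart of a newborn mouse leaves a fetal state within weeks of birth. Cardiomyocytes replicate their DNA for the last time without dividing, become binucleated and afterwards grow in size instead of in number. Their contractile apparatus exchanges fetal for adult isoforms, for example slow skeletal troponin I (Tnni1) for cardiac troponin I (Tnni3) and beta for alpha myosin heavy chain (Myh7 for Myh6), and their mitochondria multiply as fuel use moves from glucose and lactate towards fatty acids carried by milk. T-tubules, the sarcoplasmic reticulum and the repolarizing potassium currents mature over the same period, under the influence of thyroid hormone and glucocorticoids. The connective tissue, valves, vessels and resident immune cells of the heart remodel at the same time.

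A heart had 11643611 to 22390638 counts. At 1 week 45.8% to 49.7% of them lay on the mitochondrial genome, and at 2 weeks 68.2% to 70.4%. This left 6300951 to 10292723 counts on the nuclear genes used at 1 week and 3923694 to 7003955 at 2 weeks. CPM in what follows is a count scaled to the total of these nuclear counts with TMM normalization, a scale that compares 1 gene between hearts but not different genes with each other. A floor of 3 counts was 0.291 to 0.476 CPM in a 1-week heart and 0.428 to 0.765 CPM in a 2-week heart before TMM scaling, and covers counting error only. Several kinds of sequence differed between the tables in all hearts. Processed pseudogenes held 0.072% to 0.077% of nuclear counts in WT hearts at 1 week and 0.325% to 0.360% at 2 weeks, while WT hearts of the 1-month table were at 0.057% to 0.062%. Small noncoding RNAs held 0.744% to 0.782% at 1 week and 1.66% to 1.92% at 2 weeks, and 0.536% to 0.843% in WT hearts of 1 month. Xist reads were present in 1 heart of each age.

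Markers of cell types showed which hearts stood apart. The heart labelled 2 weeks, replicate 2 held thymus transcripts, with a summed level of 7 thymocyte markers of 311 CPM against 0.459 and 0.324 CPM in the other 2-week hearts and 6.90, 3.86 and 1.30 CPM at 1 week. Its count of Rag1, a recombinase of developing lymphocytes, was 746, and its T and B cell markers summed to 149 CPM against 17.6 and 19.6 CPM. The heart labelled 1 week, replicate 2 was low in atrial transcripts, with Nppa (atrial natriuretic peptide) at 20.8 CPM against 255 and 282 CPM and Myl4 (atrial light chain) at 80.8 against 433 and 497 CPM. The heart labelled 1 week, replicate 1 held the most blood RNA, its erythroid markers summing to 9094 CPM against 2558 and 2619 CPM, and the highest sum of Schwann cell and neuron markers (81.6 against 16.0 and 45.4 CPM). The brown fat gene Ucp1 was at 29.9, 0.827 and 18.1 CPM at 1 week and at 2.76, 0.793 and 0.809 CPM at 2 weeks. Defining markers of lung and liver stayed at 0 to 2.61 CPM in sum in all 6 hearts. Values without these hearts are given where they change a result, and their part in the results was not tested beyond that.

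**Figure D1:**
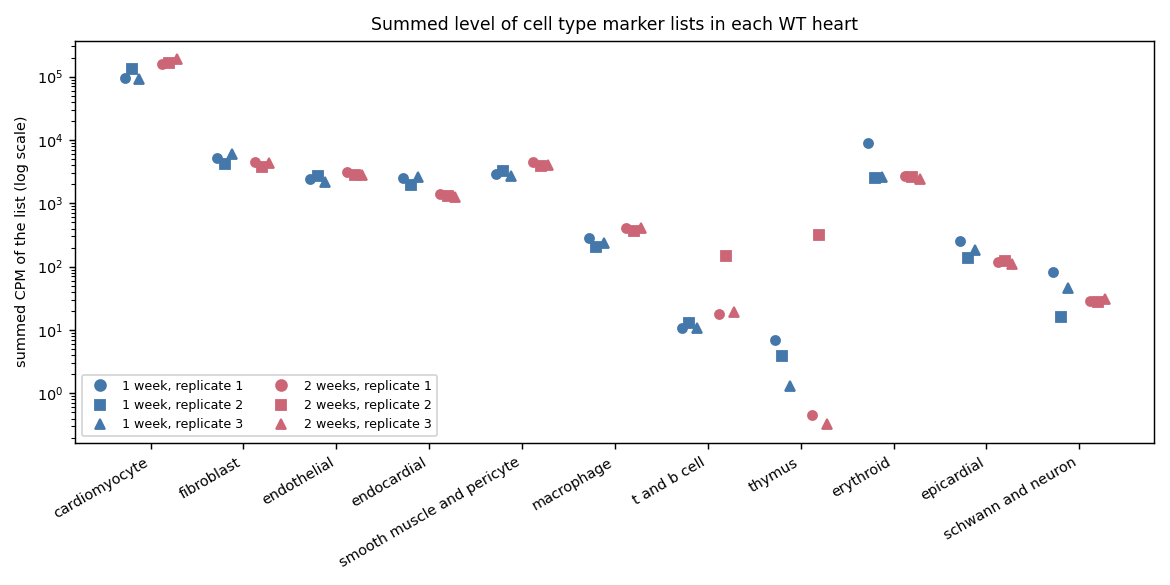
Summed CPM (log scale) of the marker genes of 11 cell types in each of the 6 WT hearts, blue for 1 week and red for 2 weeks, with the symbol giving the replicate. The square of the 2-week group lies at 311 CPM for thymus, far above the other 5 hearts, and endocardial sums of the 2 ages do not overlap.

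Between the 2 ages 4954 genes, 39.1% of those tested, were differentially expressed (DEGs, an adjusted p under 0.05 by edgeR's quasi-likelihood (QL) test, adjusted after Benjamini-Hochberg (BH) for all genes tested). In RNA of a whole organ, fewer cells of a type and less RNA per cell cannot be told apart. At 2 weeks 2392 genes (18.9%) were higher and 2562 (20.2%) were lower than at 1 week. The median log2 difference was 0.00 over all genes tested, and its median size among DEGs was 0.60. The levels of the 2 ages did not overlap for 6354 genes (50.2%), of which 4788 were DEGs. A change beyond 1.5-fold was called for 840 genes (6.63%), 401 higher and 439 lower. When libraries were scaled by their nuclear totals alone, the median of all genes was −0.16 and the split became 1497 higher and 4031 lower, 27.1% of DEGs higher in place of 48.3%, and directions are relative to the bulk of expressed genes. Each list of genes is described by its DEGs in each direction and the median log2 difference of its tested members, beside these shares. The lists were chosen with earlier results of these data known, so their counts are a description and not a test of a list. Differences are given as log2 of 2 weeks over 1 week with their standard error (SE).

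The contractile apparatus exchanged isoforms. Tnni1, the troponin I of fetal heart and slow muscle (ENSMUSG00000026418, chromosome 1, 135779434 to 135810989, plus strand of GRCm38), was at 407, 512 and 491 CPM in the 1-week hearts and at 15.8, 26.4 and 12.1 CPM in the 2-week hearts. The 2 ages lay far apart, and Tnni1 had the largest fall of any protein-coding gene, by 4.75 on the log2 scale (SE 0.21, edgeR QL test, BH-adjusted p = 7.25e-08). Tnni3, its adult partner (ENSMUSG00000035458, chromosome 7, 4518305 to 4524229, minus strand), rose from 1557, 1790.5 and 1579 CPM to 3848, 3416 and 3359 CPM, a difference of 1.11 (SE 0.11, adjusted p = 2.14e-05). Myh7, the slow myosin heavy chain, was at 155, 181 and 267 CPM and then at 38.3, 39.9 and 56.5 CPM, a fall by 2.15 (SE 0.20, adjusted p = 1.35e-05). Myh6, the fast myosin of the adult mouse ventricle that lies beside it on chromosome 14, was at 25985, 32416 and 26037 CPM and then at 35485, 32553 and 35387 CPM. All 2-week values were above the 1-week values, but the difference of 0.29 (SE 0.15) did not pass the test (adjusted p = 0.155).

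Of 29 tested sarcomere genes of the mature ventricle 15 rose and 1 fell, with a median of 0.36. Myoz2, a Z-disc protein that binds calcineurin, rose from 524, 590.3 and 441 CPM to 1516, 1312 and 1398 CPM, by 1.44 (SE 0.12), and Tpm1, alpha tropomyosin, from 5124, 5630.4 and 4775 CPM to 14039.6, 11993 and 12232 CPM, by 1.30 (SE 0.13). Neither gene overlapped between the ages. Xirp2, an actin-binding protein, rose by 1.22 (SE 0.12), the titin gene Ttn by 0.88 (SE 0.24) and the titin cap Tcap by 0.93. Ankrd1, a stress-responsive repeat protein of the I-band, was the member that fell, by 1.03 (SE 0.17, adjusted p = 5.89e-04). Without the 1-week heart low in atrial transcripts 20 members rose and 1 fell.

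Among 13 tested sarcomere genes of the embryonic and newborn heart Tnni1, Myh7 and the non-muscle actinin Actn1 fell, and Actc1, cardiac actin, and Acta2, smooth muscle actin, rose, by 0.56 (SE 0.14) and 0.43. The other 8 did not pass the test, and the median was −0.34. Myl4 was at 433, 80.8 and 497 CPM and then at 112, 26.97 and 252 CPM (−1.35, SE 0.65, adjusted p = 0.123), and the ages overlapped, with replicate 2 the lowest at both. Without the 1-week replicate 2, 10 members fell and 2 rose (median −0.62), and 5 fell without the 2-week replicate 3. Nppa gave a similar picture, at 255, 20.8 and 282 CPM and then 42.9, 17.2 and 127 CPM (−1.53, SE 0.74, adjusted p = 0.121), although 61.5% of its exon bases are shared with an antisense gene, and its level at 1 month (346 CPM) was the highest of the 3 ages. Nppb, the other natriuretic peptide, was at 70.4, 146 and 81.6 CPM and then at 113, 83.0 and 75.2 CPM, and the ages overlapped (−0.12, SE 0.23). Of 11 tested genes of the fetal and stress program, these 2 peptides among them, 4 fell and 3 rose. The shares of all genes tested were 20.2% lower and 18.9% higher. Without the 1-week replicate 2, 7 fell. Counts of Myh8, perinatal myosin, were 139, 24 and 87 at 1 week and 3, 1 and 5 at 2 weeks, and this gene was too low to be tested.

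**Figure D2:**
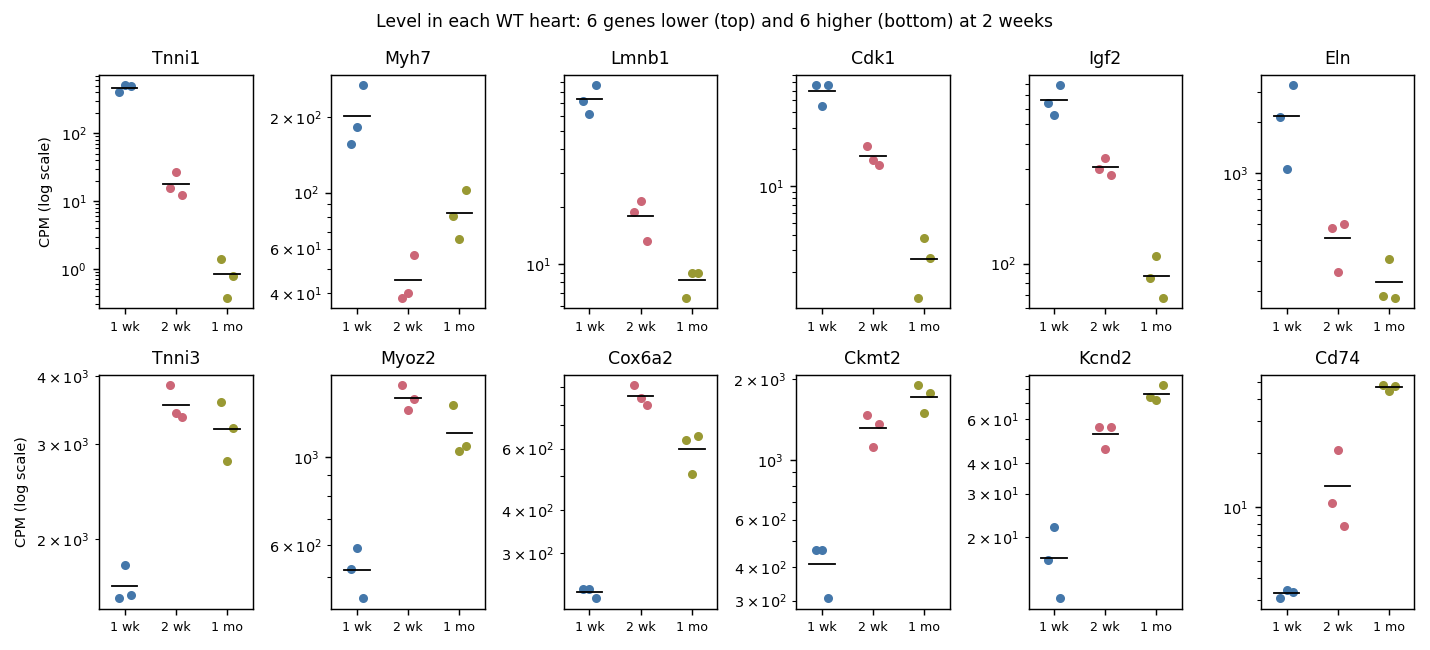
Level (CPM, log scale) of 12 genes in each WT heart of the 3 ages (1 and 2 weeks, 1 month), with each point 1 heart and the bar the mean of 3. The 6 genes of the upper row are lower at 2 weeks than at 1 week in all hearts and the 6 of the lower row higher, and Tnni1 falls further to 0.853 CPM at 1 month while Myh7 lies at 82.9 CPM.

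Paired isoforms were compared as the share of 1 gene in the summed counts per kilobase of exon of both. The length counts all annotated exons of a gene, so the size of a share depends on the annotation. In 11 of 12 pairs the 2 ages did not overlap, and among single genes tested 50.2% did not. For 3 against 3 hearts, no overlap gives the smallest p an exact permutation test allows (two-sided p = 0.1, 0.109 after BH adjustment over 12 pairs). Tnni1 held 14.1% ± 1.05 (SD, n = 3) of troponin I at 1 week and 0.294% ± 0.128 at 2 weeks. Myh7 held 0.565% ± 0.199 of cardiac myosin heavy chain and then 0.101% ± 0.0207, and the share was 0.151% ± 0.0261 at 1 month. In cytochrome c oxidase the isoforms found in all tissues lost share to those of heart and muscle. Cox7a2 held 59.3% ± 2.76 of its pair with Cox7a1 at 1 week and 28.4% ± 2.02 at 2 weeks, Cox6a1 33.4% ± 1.08 and 12.6% ± 0.497 of its pair with Cox6a2, and Cox8a 33.8% ± 4.99 and 19.7% ± 0.567 of its pair with Cox8b. The glucose transporter Slc2a1 held 8.07% ± 2.72 and then 2.89% ± 0.570 beside the insulin-responsive Slc2a4, and hexokinase 1 held 50.4% ± 4.23 and then 39.4% ± 3.31 beside hexokinase 2. Brain-type creatine kinase Ckb held 9.70% ± 1.96 and then 4.34% ± 0.0979 beside the muscle type Ckm. Skeletal actin Acta1 stayed a minor share of its pair with Actc1, 0.712% ± 0.240 and 0.388% ± 0.0655, and was at 1.84% ± 0.485 at 1 month. The share of liver-type Cpt1a was 97.3% ± 0.313 and 94.3% ± 0.510, but 81.4% of the exon bases of its partner Cpt1b also belong to a readthrough gene on the same strand, where reads may have been left out as ambiguous, so this share is uncertain. The atrial light chain Myl4 overlapped between ages in its pair with Myl3 (5.61% ± 3.91 and 1.64% ± 1.56, exact p = 0.3).

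**Figure D3:**
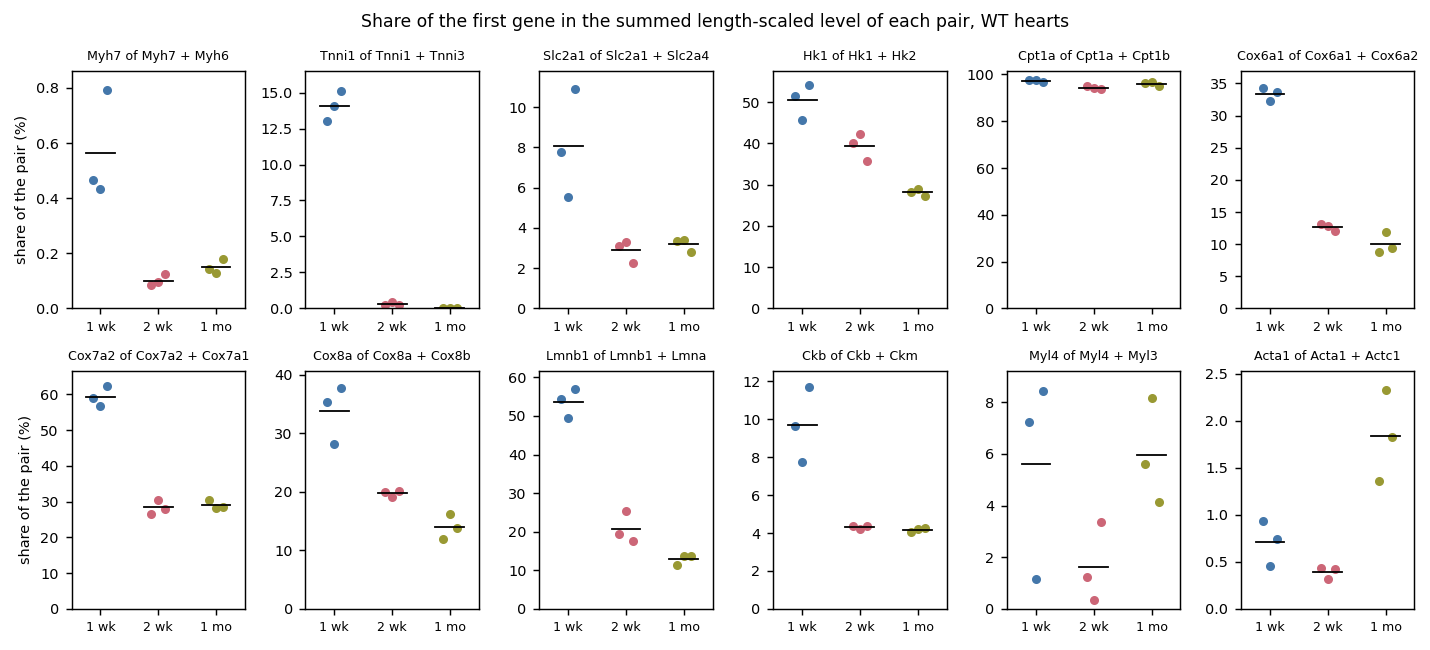
Share (%) of the first gene in the summed counts per kilobase of 12 gene pairs in each WT heart of the 3 ages (1 and 2 weeks, 1 month), with points for hearts and bars for means. In every pair but Myl4 with Myl3 the 3 hearts of 2 weeks lie below the 3 hearts of 1 week.

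Genes of mitosis fell as a group. All 40 tested genes of the list were lower at 2 weeks, against 20.2% of all genes tested, with a median of −1.49 and a range of −2.52 to −0.68. Of them 36 fell beyond 1.5-fold, a change called in either direction for 6.63% of all genes tested. All 40 fell in each fit that left out 1 heart. Cdk1, the kinase that drives entry into mitosis (chromosome 10, 69335146 to 69352938, minus strand), was at 66.6, 44.8 and 66.4 CPM and then at 21.3, 16.4 and 14.9 CPM, a fall by 1.75 (SE 0.17, edgeR QL test, BH-adjusted p = 2.25e-05). Its cyclin Ccnb1 went from 62.6, 45.3 and 61.0 CPM to 14.7, 14.3 and 11.8 CPM, a fall by 2.06 (SE 0.15), though 47.1% of its sequence words of 30 bases recur in processed pseudogenes and its counts are uncertain. Mki67, the proliferation marker Ki-67, fell less, from 566, 457 and 530.1 CPM to 240.1, 342 and 258 CPM (−0.89, SE 0.13, adjusted p = 2.89e-04). The highest 2-week value of Mki67 was in the heart with thymus transcripts, which also had the highest sum of the list at 2 weeks (1302 against 1022 and 965 CPM, and 2932, 2197 and 2728 CPM at 1 week). At 1 month the sum was 213 CPM ± 40.4 (SD, n = 3).

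Promoters of these genes carried 2 motifs known from the late cell cycle, the cell cycle genes homology region (CHR, letters TTTGAA), bound by the MuvB complexes, and the CCAAT box bound by NF-Y. Windows from RefSeq (GRCm38.p6), 250 bases before to 50 after a gene's start, matched 33 of the 40 genes with 35 promoters, and motifs were searched on both strands. TTTGAA stood in 80.0% of the 35 promoters, against 17.9% of all 32851 promoters and 11.9% of the promoters of tested genes. CCAAT stood in 80.0% against 37.4% of all promoters, and both together in 71.4% against 6.95%. The following 3 windows show the arrangement in genes that fell by 1.75 to 2.02, with matches to either motif, as spelled above or as its reverse complement, in capitals. In Cdca8 the motifs overlap and stand as 1 capital run. A match is a description of the letters and not a site of binding.

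Cdk1 (chr10:69352863-69353162, minus strand): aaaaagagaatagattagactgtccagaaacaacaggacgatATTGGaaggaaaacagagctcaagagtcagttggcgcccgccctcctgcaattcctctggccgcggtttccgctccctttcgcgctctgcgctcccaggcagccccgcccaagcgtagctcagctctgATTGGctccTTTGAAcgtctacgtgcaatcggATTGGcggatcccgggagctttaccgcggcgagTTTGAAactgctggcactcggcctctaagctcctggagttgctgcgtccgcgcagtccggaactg
Cdca8 (chr4:124936868-124937167, minus strand): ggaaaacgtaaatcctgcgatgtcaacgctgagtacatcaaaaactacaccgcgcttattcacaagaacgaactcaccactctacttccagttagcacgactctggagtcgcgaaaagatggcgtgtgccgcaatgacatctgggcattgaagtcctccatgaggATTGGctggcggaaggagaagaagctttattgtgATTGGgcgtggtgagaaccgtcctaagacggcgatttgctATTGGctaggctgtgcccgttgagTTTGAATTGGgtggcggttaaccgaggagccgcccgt
Hmmr (chr11:40733388-40733687, minus strand): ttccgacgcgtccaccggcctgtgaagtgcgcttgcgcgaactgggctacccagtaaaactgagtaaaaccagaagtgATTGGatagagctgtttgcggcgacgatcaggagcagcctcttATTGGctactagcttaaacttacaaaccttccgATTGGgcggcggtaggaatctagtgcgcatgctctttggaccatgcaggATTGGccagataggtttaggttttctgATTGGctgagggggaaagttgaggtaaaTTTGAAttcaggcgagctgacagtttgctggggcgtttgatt

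Cdca8, a subunit of the chromosomal passenger complex, was at 25.6, 17.4 and 22.03 CPM and then at 5.21, 6.61 and 4.69 CPM (−2.02, SE 0.20, adjusted p = 2.08e-05). Hmmr, a spindle assembly factor, was at 82.6, 57.8 and 81.0 CPM and then at 25.0, 21.7 and 16.8 CPM (−1.81, SE 0.16). For both genes every 2-week heart was below every 1-week heart.

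Genes of DNA replication fell too, 38 of 45 tested and none of them higher, with a median of −0.96. Rrm2, the ribonucleotide reductase subunit that limits supply of DNA precursors, fell by 2.24 (114, 87.2 and 112 CPM, then 23.6, 27.5 and 16.5 CPM, SE 0.16), and 15.8% of its sequence words recur in pseudogenes. The 2 ages were separate by over 3-fold between their nearest hearts. Dtl, which directs the destruction of licensing factors, fell by 2.02 (SE 0.18), E2f1 by 1.67 (SE 0.24) and the helicase subunit Mcm5 by 0.93 (48.0, 44.7 and 48.7 CPM, then 25.1, 33.0 and 17.6 CPM, SE 0.16, adjusted p = 9.70e-04). Mcm10, Rfc3, Gins1, Prim2, Orc1, Pola2 and Gins4 did not pass the test (−0.79 to 0.16). In the promoters of this list, 45 windows for 37 genes, the E2F motif TTCCCGC stood in 40.0% against 4.60% of all promoters and 8.14% of those of tested genes, and in 0 of the 35 promoters of the mitosis list. TTTGAA stood in 17.8% of them. The window of Dtl is shown for its single TTCCCGC, in capitals beside its CCAAT.

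Dtl (chr1:191575495-191575794, minus strand): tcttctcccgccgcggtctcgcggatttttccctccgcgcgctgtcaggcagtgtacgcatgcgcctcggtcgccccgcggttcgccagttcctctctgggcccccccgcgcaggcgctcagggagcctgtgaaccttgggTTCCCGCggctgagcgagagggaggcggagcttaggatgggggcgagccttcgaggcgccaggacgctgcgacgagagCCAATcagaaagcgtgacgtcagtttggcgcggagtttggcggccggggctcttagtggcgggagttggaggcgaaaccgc

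Histone genes of the replication-dependent clusters fell in 22 of 31 tested, with 1 higher and a median of −0.89. Hist1h1b, a linker histone, was at 109, 73.6 and 95.1 CPM and then at 24.2, 50.2 and 20.9 CPM (−1.61, SE 0.25, adjusted p = 4.39e-04), with the highest 2-week value again in the heart that held thymus transcripts. Without both replicates 2 the median was −1.24 and 25 fell. Of the list's genes 8 share sequence with pseudogenes. Of 17 tested inhibitors of the cell cycle 4 rose and 6 fell, against 18.9% and 20.2% of all genes tested. Without replicate 3 of either age 2 rose. Gadd45g, a growth arrest gene, rose from 6.18, 7.44 and 5.80 CPM to 19.9, 13.5 and 15.2 CPM (1.34, SE 0.19), and Ccng1 rose by 0.73 (SE 0.11). Cdkn1a (p21) went the other way, from 24.8, 26.3 and 28.5 CPM to 15.5, 17.2 and 17.3 CPM (−0.67, SE 0.12, adjusted p = 0.00101), and the pocket protein gene Rbl1 fell by 1.19 (SE 0.12). Meis1, a homeobox factor that holds cardiomyocytes out of the cycle, was at 45.3, 44.0 and 46.7 CPM and then at 35.1, 42.6 and 44.5 CPM (−0.16, SE 0.10, adjusted p = 0.238).

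Of 22 tested G1 cyclins and growth signals 9 fell and 2 rose (4 without the 1-week replicate 2). Ccnd2, cyclin D2, was at 323, 401 and 336 CPM and then at 161, 174 and 170.1 CPM (−1.07, SE 0.10), and the neuregulin co-receptor Erbb2 was at 29.97, 24.4 and 32.03 CPM and then at 16.7, 11.4 and 15.05 CPM (−0.98, SE 0.16, adjusted p = 4.90e-04). Both were lower in every 2-week heart. The neuregulin receptor Erbb3 rose by 0.35, Erbb4 was at −0.26 without passing the test, and Fgf16, a growth factor of cardiomyocytes, rose by 0.84 (SE 0.18).

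Imprinted and oncofetal growth genes fell in 14 of 23 tested and rose in 3, with a median of −0.67. Igf2, the fetal insulin-like growth factor, was at 641, 556 and 786 CPM and then at 299.6, 337 and 278 CPM (−1.12, SE 0.13, adjusted p = 5.10e-05), and 62.8% of its exon bases are shared with a readthrough gene on the same strand. H19, the noncoding RNA of the same imprinted cluster on chromosome 7, was at 513, 338 and 564 CPM and then at 194, 215 and 171 CPM (−1.29, SE 0.16). The ages did not overlap in either gene, and at 1 month the means were 87.0 and 34.7 CPM. Dlk1, a Notch-related ligand of fetal tissues, fell by 2.38 (SE 0.26), from 7.31 to 7.90 CPM at 1 week to 1.13 to 1.68 CPM at 2 weeks and 0.0749 CPM at 1 month. Mest fell by 1.62 (SE 0.09), Zdbf2 by 1.64 (SE 0.18), Plagl1 by 1.12 (SE 0.09) and Igf2bp3, which binds Igf2 messenger RNA, by 1.66 (SE 0.21). Counts of other oncofetal genes fell below the test's minimum. Igf2bp1 had 55, 14 and 43 counts at 1 week and 4, 2 and 6 at 2 weeks, Lin28b 16, 13 and 9 and then 4, 2 and 5, and Hmga2 9, 11 and 4 and then 0 in each 2-week heart. The 3 members that rose were Gnas, Dcn and Hmga1.

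Genes of oxidative phosphorylation encoded in the nucleus rose in 59 of 83 tested and fell in 4, with a median of 0.48, against 18.9% of all genes higher. Complex I, the NADH dehydrogenase, had 30 of 37 higher and none lower (median 0.57). Ndufb8, one of its accessory subunits, was at 182, 179 and 144 CPM and then at 374, 335 and 317 CPM (1.02, SE 0.10, edgeR QL test, BH-adjusted p = 2.78e-05). Complexes II and III had 8 of 14 higher and 1 lower (median 0.36), with Uqcrb at 0.88 (SE 0.09) and cytochrome c, Cycs, at 0.83 (SE 0.09), both of which share sequence with pseudogenes. Complex IV, cytochrome c oxidase, had 11 of 15 higher and none lower (median 0.80), and complex V, the ATP synthase, 10 of 17 higher and 3 lower (median 0.39).

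Heart and muscle isoforms of complex IV led. Cox6a2 (chromosome 7, 128205435 to 128206387, minus strand) was at 237, 236 and 223 CPM and then at 912, 840.5 and 799 CPM (1.87, SE 0.09, adjusted p = 1.15e-07). Cox7a1 (chromosome 7, 30184144 to 30186078, plus strand) was at 135, 139.6 and 106 CPM and then at 524, 426 and 512 CPM (1.94, SE 0.12), and Cox8b rose by 1.44 (SE 0.13). The hearts of each age lay close together and the ages were over 3-fold apart for both Cox6a2 and Cox7a1. Their partners found in all tissues, Cox6a1 and Cox7a2, were at 0.08 (SE 0.09) and 0.06 (SE 0.08) and did not pass the test, while Cox8a rose by 0.42 (SE 0.08). The 4 genes that fell were Atp5g3, Atp5e and Atp5j of complex V and Uqcrq of complex III, by 0.27 to 0.41. The share of all counts on the mitochondrial genome also differed between ages, as given above, and was 57.6% to 59.5% in WT hearts of 1 month. Genes of that genome were left out of the tests. Of 72 promoters of 67 of these genes 12.5% held AAGGTCA, the half-site of estrogen-related receptors, against 4.72% of all promoters and 3.08% of those of tested genes.

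Fatty acid oxidation rose in 26 of 35 tested genes and fell in 1, with a median of 0.52. Ech1, an auxiliary enzyme for unsaturated fatty acids, was at 357, 472 and 320.0 CPM and then at 919, 810.3 and 794 CPM (1.13, SE 0.13), and the medium-chain dehydrogenase Acadm was at 654, 745 and 569 CPM and then at 1193, 1056 and 1119 CPM (0.78, SE 0.11). Neither overlapped between ages. Cpt2, of the carnitine shuttle, rose by 0.86 (SE 0.10), the lipid droplet protein Plin5 by 1.07 (SE 0.15) and the uptake receptor Cd36 by 0.40 (SE 0.14, adjusted p = 0.0414). Pdk4, which blocks entry of pyruvate into the mitochondrial cycle, was at 264, 714 and 151 CPM and then at 1329, 1609 and 1099 CPM (1.84, SE 0.42, adjusted p = 0.0045). The 1-week replicate 2, low in atrial transcripts, had the highest 1-week level of Pdk4 and of the uncoupling protein gene Ucp3 (66.2 against 29.4 and 12.5 CPM), and both genes were higher in every 2-week heart. Etfa, an electron carrier subunit, was the member that fell, by 0.71 (SE 0.10).

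The tricarboxylic acid cycle and pyruvate entry had 13 of 23 genes higher and none lower (median 0.36). Mpc1, a subunit of the mitochondrial pyruvate carrier, was at 22.5, 18.5 and 20.4 CPM and then at 72.4, 53.4 and 62.1 CPM (1.62, SE 0.12), with 24.9% of its sequence words also in pseudogenes, and the dehydrogenase subunit Idh3g rose by 0.94 (SE 0.10). Genes for the use of ketone bodies and branched-chain amino acids rose in 16 of 23 and none fell (median 0.40). Bckdha, of the branched-chain ketoacid dehydrogenase, had the largest rise at 1.68 (SE 0.12), but 61.7% of its exon bases are opposite another gene, B3gnt8, and without knowledge of whether counting used strand its reads cannot be assigned. Aldh6a1 and Mcee, of valine and propionate breakdown, rose by 0.83 each.

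Of 22 tested glycolysis genes 5 were higher and 7 lower, against 18.9% and 20.2% of all genes tested. The median of 0.13 became −0.034 with scaling by library totals alone. Without the 2-week replicate 1 the number higher was 3. Slc2a4, the insulin-responsive glucose transporter GLUT4, was at 91.0, 103 and 92.6 CPM and then at 175, 161 and 168 CPM (0.82, SE 0.08, adjusted p = 2.00e-05). Slc2a1, the fetal transporter GLUT1, was at 7.72, 6.06 and 11.4 CPM and then at 5.67, 5.55 and 3.88 CPM, a fall by 0.74 (SE 0.27) close to the threshold (adjusted p = 0.0485). Lactate dehydrogenase Ldha fell by 0.45 (SE 0.10), the lactate exporter Slc16a3 by 1.23 (SE 0.25), Pgk1 by 0.72 (SE 0.09) and hexokinase 1 by 0.62 (SE 0.08). Hexokinase 2 was at 167, 209.6 and 161 CPM and then at 181, 162 and 203 CPM (0.03, SE 0.11). Eno1 fell by 0.95 (SE 0.09), with 57.5% of its sequence words in pseudogenes, and 10 of the 22 genes share sequence in this way.

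Energy transfer and oxygen storage had 5 of 13 genes higher, 1 lower and a median of 0.05, and those that rose were abundant muscle genes. Ckmt2, mitochondrial creatine kinase, was at 464, 461 and 307 CPM and then at 1474, 1117 and 1356 CPM (1.68, SE 0.16), and Ckm at 696, 761 and 554 CPM and then 1656, 1417 and 1449 CPM (1.17, SE 0.12). Myoglobin, Mb, rose by 1.15 (SE 0.13), with 31.9% of its exon bases opposite other genes. The ages were separate in all 3. Of the adenine nucleotide carriers Slc25a4, the muscle form, rose by 0.68 (SE 0.12) and Slc25a5 fell by 0.53.

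Regulators of energy metabolism rose in 10 of 22 and fell in 1 (median 0.21). The receptor Esrra was at 42.6, 49.1 and 47.5 CPM and then at 94.2, 60.8 and 64.2 CPM (0.67, SE 0.15, adjusted p = 0.00357), and the retinoid receptor Rxrg and the Krüppel-like factors Klf9 and Klf15 rose by 1.21, 1.24 and 1.19. Ppara, the receptor for fatty acids, was at 44.0, 41.8 and 39.4 CPM and then at 47.6, 38.3 and 42.1 CPM (0.04, SE 0.10), and the coactivator Ppargc1a at 166, 255 and 172 CPM and then 243, 216 and 244 CPM (0.25, SE 0.14, adjusted p = 0.19). Both genes overlapped between ages. Hif1a, the oxygen-regulated factor, fell by 0.41. Mitochondrial ribosomal proteins rose in 18 of 33 and fell in 2 (median 0.32), led by Mrpl34 at 1.03 (SE 0.12).

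**Figure D4:**
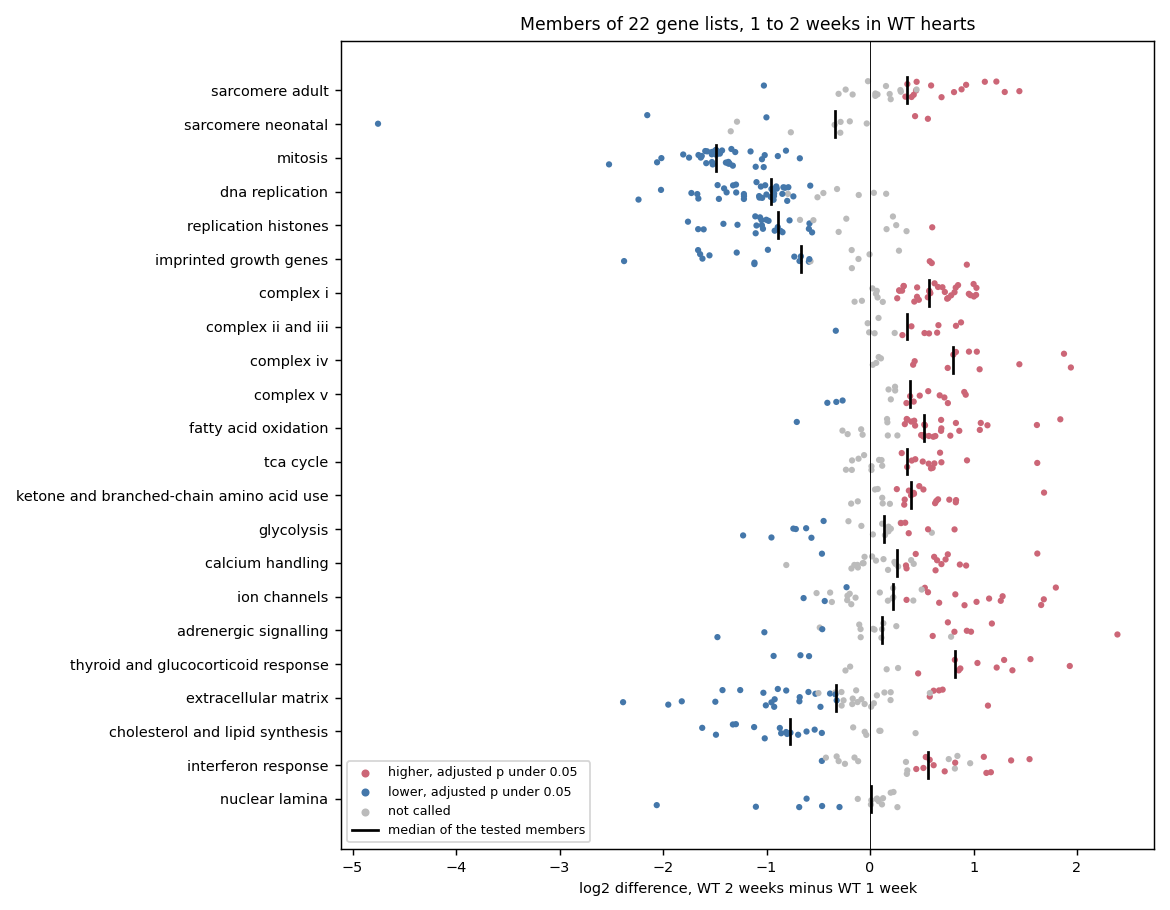
Log2 difference (WT 2 weeks minus WT 1 week) of the tested members of 22 gene lists, each point 1 gene, red for DEGs that were higher, blue for DEGs that were lower and grey for the rest, with a bar at the list's median. Mitosis lies wholly to the left of 0 with a median of −1.49, and complex IV has its median at 0.80 with no member below 0.

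The list for the response to thyroid hormone and glucocorticoids, which holds receptors beside targets, had 10 of 17 genes higher and 3 lower, with a median of 0.82. Thrb, a thyroid hormone receptor, was at 8.90, 15.2 and 11.9 CPM and then at 28.3, 24.6 and 38.0 CPM (1.38, SE 0.20, adjusted p = 3.17e-04), and Hr, a corepressor induced by thyroid hormone, rose by 1.55 (SE 0.16). Zbtb16, a glucocorticoid target, was at 11.5, 8.68 and 11.6 CPM and then at 36.8, 30.4 and 53.4 CPM (1.93, SE 0.20). In all 3 every 2-week heart was above every 1-week heart. Nr3c2, the mineralocorticoid receptor, rose by 1.037 (SE 0.18), Sgk1 by 0.82 (SE 0.23) and Dusp1 by 1.29 (SE 0.35), where the 1-week replicate 2 was at 90.8 CPM against 28.8 and 30.4 CPM and overlapped the 2-week hearts. Fkbp5, another glucocorticoid target, went down, from 22.1, 14.2 and 15.1 CPM to 6.43, 14.3 and 7.93 CPM (−0.93, SE 0.26, adjusted p = 0.0154), and the ages overlapped. The glucocorticoid receptor gene Nr3c1 did not pass the test (−0.19). Genes of the circadian clock rose in 5 of 17 and fell in 1, against 18.9% and 20.2% of all genes tested. Their median was 0.14 (−0.035 with library totals alone), with Nr1d1 at 0.76 (SE 0.13) and Arntl at 0.54 (SE 0.13). Without replicate 1 of either age 3 rose. The hour of tissue collection is not given in the sources used here.

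Calcium handling rose in 12 of 30 genes and fell in 1 (median 0.26). S100a1, a calcium sensor of the sarcoplasmic reticulum, was at 126, 121 and 107 CPM and then at 392, 325 and 368 CPM (1.62, SE 0.10, edgeR QL test, BH-adjusted p = 6.40e-07). Trdn, triadin of the release complex, rose by 0.93 (SE 0.10), Tmem38a by 0.87 (SE 0.10), and the calcium channel subunits Cacnb2 and Cacna1c by 0.75 and 0.35. The pump Atp2a2 (SERCA2) was at 7544, 9964 and 7761 CPM and then at 10309, 9386 and 10263 CPM (0.25, SE 0.14, adjusted p = 0.185), and its overlap between ages came from the 1-week replicate 2. The release channel Ryr2 was at 0.42 (SE 0.16, adjusted p = 0.0589). Phospholamban, Pln, rose by 0.65 (SE 0.16), with 64.7% of its exon bases opposite other genes. The sodium-calcium exchanger Slc8a1, prominent in the fetal heart, fell by 0.47 (SE 0.09).

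Ion channels and pumps rose in 13 of 31 genes and fell in 3 (median 0.22), or in 6 without the 1-week replicate 2. Subunits of the transient outward potassium current rose together. Kcnd2 was at 16.2, 21.9 and 11.3 CPM and then at 55.9, 45.5 and 56.0 CPM (1.68, SE 0.18), Kcnd3 rose by 1.79 (SE 0.21) and the auxiliary Kcnip2 by 0.67. Kcnj2, of the inward rectifier that sets the resting potential, was at 114, 87.8 and 119 CPM and then at 156, 148 and 158 CPM (0.53, SE 0.11, adjusted p = 0.00222). The pacemaker channel gene Hcn2 rose by 1.65 (SE 0.20), while Hcn4 did not pass the test (−0.52). Cacna1h, a T-type calcium channel of the fetal heart, fell by 0.64 (SE 0.16). Phospholemman, Fxyd1, a regulator of sodium transport, rose by 1.15 (SE 0.08).

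The list of adrenergic signalling had 7 of 21 genes higher and 3 lower, against 18.9% and 20.2% of all genes tested. Its median was 0.12, and −0.048 with library totals alone. Adra1a, an alpha-1 receptor, had the largest rise, from 1.45, 2.21 and 1.16 CPM to 7.96, 8.46 and 8.90 CPM (2.39, SE 0.26, adjusted p = 4.57e-05), and was at 30.9 CPM at 1 month. Adrb1, the main beta receptor of the heart, was at 12.6, 17.5 and 18.7 CPM and then at 16.8, 14.3 and 18.1 CPM (0.04, SE 0.17). Of these receptors Adra1a separated the ages and Adrb1 did not. The muscarinic receptor Chrm2 rose by 0.98 (SE 0.09) and Rgs4, which curbs G protein signals, by 1.18 (SE 0.12). Regulatory subunits of protein kinase A fell, Prkar1a by 1.02 (SE 0.09) and Prkar2b by 1.47 (SE 0.35).

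At the intercalated disc, the junction between cardiomyocytes, 3 of 17 genes rose and 3 fell (median −0.02). These counts are near the shares of all genes tested, 18.9% higher and 20.2% lower. Gja1, the main ventricular gap junction protein, was at 721, 956 and 845 CPM and then at 536, 528 and 571 CPM (−0.62, SE 0.11, adjusted p = 8.20e-04), lower in every 2-week heart. Desmin, Des, rose by 0.69 (SE 0.10). Cardiac transcription factors had 5 of 26 higher (3 without replicate 1 of either age) and 7 lower, against 18.9% and 20.2% of all genes tested. Sox11, a factor of progenitor cells, fell by 2.03 (14.3, 11.99 and 18.5 CPM, then 4.29, 3.44 and 3.07 CPM, SE 0.23), Tbx20 by 0.84 (SE 0.08) and Hey2 by 0.82 (SE 0.21). Nkx2-5 rose by 0.70 (SE 0.13) and Tbx2 by 0.83 (SE 0.18). The median of −0.06 became 0.015 without the 1-week replicate 2.

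Extracellular matrix genes fell in 21 of 44 and rose in 5, with a median of −0.33. Eln, elastin of great vessels and valves (chromosome 5, 134702593 to 134747323, minus strand), was at 2120.4, 1054 and 3279 CPM and then at 473, 259.6 and 498 CPM (−2.39, SE 0.35, adjusted p = 2.81e-04). Both replicates 2, the hearts low in atrial light chains, were the lowest of their age. Lox, which cross-links elastin and collagen, fell by 1.95 (SE 0.26), tenascin C, Tnc, by 1.82 (SE 0.23), and fibrillin 2, Fbn2, decreased by 1.495 (SE 0.08). The fibrillar collagen Col1a1 was at 1416, 1105 and 1645 CPM and then at 812, 676 and 756 CPM (−0.89, SE 0.14, adjusted p = 3.98e-04), and Col3a1 fell by 0.53 (SE 0.14, adjusted p = 0.0123). Postn, periostin, fell by 0.93 (SE 0.12). Cilp, a matrix protein of adult heart fibroblasts, rose by 1.14 (SE 0.16) and decorin, Dcn, by 0.58. Basement membrane genes had 2 of 17 higher and 6 lower (median −0.15), against 18.9% and 20.2% of all genes tested. The laminin receptor Itga7 was up by 0.88 (SE 0.11) and Nid2 down by 0.58 (SE 0.08).

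Cell type lists moved less uniformly. Cardiomyocyte markers rose in 6 of 12 and fell in 1 (median 0.41), and without the 1-week replicate 2 rose in 10 and fell in 2, while 3 rose without the 1-week replicate 1. Of 8 markers in the endocardial list 4 fell (Hapln1, Postn, Cdh11 and Npr3, median of the list −0.52), and Postn is also among the matrix genes above. Nfatc1, Plvap, Vwf and Cytl1 did not pass the test, and 2 members lay above 0 (up to 0.59). The sum of the list was 2554, 1983 and 2618 CPM and then 1392, 1326 and 1252 CPM. All 2-week sums were below all 1-week sums, and 2 members fell without either the 2-week replicate 2 or the 1-week replicate 3. Of 9 epicardial markers Tbx18 and Aldh1a2 fell and none rose (median −0.87), and 7 fell without the 1-week replicate 2, which was lowest in this list at its age. Fibroblast markers split, 5 of 12 higher (Pi16, a marker of adventitial fibroblasts, by 1.57, and Gsn, gelsolin, by 1.03) and 4 lower (both type I collagen genes, Tcf21 and Dpt). The endothelial list had 4 of 12 higher (7 without the 1-week replicate 2) and none lower (median 0.21), and smooth muscle and pericyte markers 6 of 12 higher and none lower (median 0.32), with Vtn at 2.19 (SE 0.16). Of 6 lymphatic endothelial markers Mmrn1 rose by 0.62. Genes of angiogenesis were higher in 5 of 24 (9 without the 1-week replicate 2), near the 18.9% of all genes tested. The list had 2 genes lower and a median of 0.14 (−0.026 with library totals alone). Among those higher were Egfl7 at 0.88 and the receptor Ackr3 at 0.81.

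Immune genes rose in several lists. Of 14 macrophage markers 10 rose and none fell (median 0.65), and the sum was 285, 203 and 237 CPM and then 415, 365 and 405 CPM. The complement genes C1qa, C1qb and C1qc, made by resident macrophages, led with 1.92 (SE 0.15), 1.41 and 1.53, and the growth factor receptor Csf1r rose by 0.55 (SE 0.10). Genes induced by interferon rose in 12 of 26 and fell in 1 (median 0.56), among them the GTPases Gbp4 at 1.54 (SE 0.23) and Gbp2 at 1.36 (SE 0.12). Isg15, 1 of 4 members too low to be tested, went the other way, with 24, 11 and 15 counts and then 4, 2 and 6. MHC class I genes rose in 5 of 13 (median 0.19), with B2m at 0.76 (SE 0.13), and in 2 without the 1-week replicate 1 or 3 without the 1-week replicate 3 or the 2-week replicate 1 or 2. H2-Q6 and H2-Q7 were too low to be tested, with means of 2.22 and 1.54 CPM at 1 week and 0.247 and 0.693 CPM at 2 weeks. Their ages overlapped. The 3 tested MHC class II genes rose, and Cd74, the invariant chain, was at 3.09, 3.45 and 3.33 CPM and then at 10.6, 20.9 and 7.77 CPM (1.94, SE 0.33, adjusted p = 8.37e-04). The highest value lay in the heart with thymus transcripts, and without it Cd74 was the 1 member of 3 that rose, while at 1 month Cd74 was at 46.5 CPM. The T and B cell list had 3 of 12 members tested, of which Ighm rose by 1.504 (SE 0.27), and the thymus list had 0 of 7 tested, being near 0 in the other hearts. Neutrophil and mast cell markers had 1 of 5 lower (Kit, by 0.82), beside 20.2% of all genes tested. The single tested platelet marker, Pf4, was at 0.21.

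Erythroid markers fell in 5 of 9, with a median of −1.67. Hbb-bs, adult beta globin, was at 5744, 949 and 1379 CPM and then at 841, 962 and 736 CPM (−1.67, SE 0.50, adjusted p = 0.0207). The 1-week replicate 1 was far above the rest, and without it 4 members fell, 1 rose and the median was −0.47, and without the 2-week replicates 1, 2 or 3 the numbers that fell were 2, 3 and 0. Alas2 and Slc4a1, of heme synthesis and the red cell membrane, fell by 2.10 (SE 0.55) and 2.36 (SE 0.64). Of the lists for tissues that may be attached to a heart, brown fat had Cox7a1 and Cidea higher and Dio2 lower of 4 tested, white fat had Car3 lower of 3 tested (−2.40, SE 0.46), skeletal muscle had Ckm higher of 2 tested, and Schwann cells and neurons had Dbh and Sox10 higher and Mbp lower of 4 tested. Heart muscle also expresses Cox7a1 and Ckm. Ucp1, the defining gene of the brown fat list, was too low at 2 weeks to be tested. It had 329, 6 and 125 counts at 1 week and 18, 3 and 5 at 2 weeks. Adipoq of the white fat list, also not tested, had 29, 1 and 11 counts and then 0, 1 and 0. The lung and liver list had 0 of 8 tested.

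Cholesterol and lipid synthesis fell in 15 of 21 genes and rose in none, with a median of −0.77. Sqle, squalene epoxidase of the sterol pathway, was at 18.6, 13.5 and 15.4 CPM and then at 7.66, 6.61 and 5.18 CPM (−1.30, SE 0.20, adjusted p = 3.59e-04), lower in every 2-week heart. The elongase Elovl6 fell by 1.49 (SE 0.30). The factor Srebf2, which induces these genes, fell by 0.77, and Srebf1 did not pass the test (0.10). The core of the sterol element, TCACCCCAC, stood in 1 of 18 promoters of the list.

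In the nuclear lamina, the protein meshwork affected in the Lmna-/- mice of the study, both B-type lamin genes fell and Lmna did not pass the test. Lmnb1, a B-type lamin abundant in dividing cells, was at 71.7, 61.5 and 86.7 CPM and then at 18.8, 21.4 and 13.3 CPM (−2.06, SE 0.17, adjusted p = 5.49e-06). Lmna (ENSMUSG00000028063, chromosome 3, 88480147 to 88509956, minus strand), the source of lamins A and C, was at 119, 124 and 129 CPM and then at 154, 125 and 123 CPM (0.11, SE 0.09, adjusted p = 0.363). The ages were separate for Lmnb1 and overlapped for Lmna, and per kilobase Lmnb1 held 53.6% ± 3.88 (SD, n = 3) of the sum of both at 1 week and 20.8% ± 4.07 at 2 weeks. Of 17 tested genes of the lamina and inner nuclear membrane 6 fell and none rose. Among those that fell were Tmpo (−1.10, SE 0.09), Lmnb2 (−0.68, SE 0.16), Lemd3 (−0.61, SE 0.11) and the lamin B receptor Lbr (−0.30). The list's median was 0.01, with 10 members above 0. Emd, Sun1, Sun2, Syne1 and Tmem43 did not pass the test (0.06 to 0.26).

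Regulators of alternative splicing fell in 9 of 16 and rose in 3 (median −0.27). Srsf1, a general splicing factor, was at 255, 252 and 260.4 CPM and then at 159, 161 and 162 CPM (−0.67, SE 0.07), and Rbfox1, a factor of mature muscle and neurons, at 24.4, 37.9 and 25.1 CPM and then 50.7, 45.2 and 57.1 CPM (0.82, SE 0.16). The ages did not overlap in either. Mbnl1 and Mbnl2 rose by 0.28 and 0.25, and Rbm20, the splicing factor of titin, was at −0.09 (SE 0.11, adjusted p = 0.53). Heat shock and unfolded protein genes had 8 of 24 higher and 7 lower (4 without the 2-week replicate 2), against 18.9% and 20.2% of all genes tested. The small heat shock proteins Hspb8 and Hspb6 were up by 1.63 (SE 0.10) and 1.40 (SE 0.10) and Hsp90aa1 down by 0.54 (SE 0.08). The antioxidant list had 15 of 31 higher and 6 lower (median 0.25, and 3 lower without the 1-week replicate 1 or the 2-week replicate 3), with extracellular superoxide dismutase, Sod3, at 1.496 (SE 0.19).

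Some values lay in genes that share sequence with other loci. Protein-coding genes with at least 10% of their 30-base words in processed pseudogenes, 699 of 11983, were higher in 15.5% and lower in 33.6% (median −0.13), against 19.2% and 20.3% of the 11284 others (median 0.00). Over the same interval the share of counts on processed pseudogenes rose as given above, and its part in the fall of these genes was not tested. Ribosomal proteins belong here, with 34 of 40 tested genes sharing sequence, 17 lower and 4 higher (Rps16 at −1.39 and Rplp1 at 0.73), and Hnrnpa1 (−1.49) and Gpx4 (0.92) are uncertain for the same reason. With all such genes left out, an alternative chosen after seeing the data, 4568 of 11952 genes were DEGs, 2215 higher and 2353 lower.

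The largest changes of all were of this kind. Of the 10 largest rises 7 share at least 10% of their words with transcripts of the mitochondrial genome, for example Gm29216, an unprocessed pseudogene at 25.5 to 36.8 CPM at 1 week, 1155 to 1410.0 CPM at 2 weeks and 42.8 to 82.5 CPM at 1 month. All 10 tested nuclear genes with such sequence rose. Other genes at the top were Gm24447 and Gm26035, small RNAs at 6.30 and 2.96 CPM, then 274 and 71.9 CPM, and 4.87 and 1.501 CPM at 1 month. The largest falls were of the ribosomal RNA genes Gm24601 and n-R5-8s1, by 5.49 and 5.21, from 165 to 258 CPM and 287 to 473 CPM at 1 week, and at 1 month these were at 132 and 264 CPM. Values of these genes stood apart in the 2-week table, and their part in any other result was not tested. Among the 10 largest falls were also Tnni1, the relaxin receptor Rxfp1 (−2.90, SE 0.36), the collagen Col24a1 (−2.73, SE 0.41), the neuronal tubulin Tubb2b (−2.63, SE 0.15), Bex1 (−2.61, SE 0.23), the mitotic phosphatase Cdc25c (−2.52, SE 0.30) and the vasohibin Vash2 (−2.48, SE 0.17). At 1 month Col24a1 was at 0.408 CPM, Vash2 at 1.59 CPM and Cdc25c at 0.

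Among protein-coding genes without shared sequence the largest rises, picked after their values were seen, were Gm4707 (3.33, SE 0.31) and Art1 (3.19, SE 0.16). Art1, a mono-ADP-ribosyltransferase of muscle surfaces, was at 6.54, 6.2025 and 4.49 CPM, then at 50.5, 47.3 and 61.8 CPM, and at 111 CPM at 1 month. Gm4707 returned to 1.08 CPM at 1 month, close to its 0.545 to 1.16 CPM at 1 week. Cebpb, a factor of acute responses, rose by 2.85 (SE 0.31), the carboxylesterase Ces1d by 2.49 (SE 0.31), hemicentin 2, Hmcn2, by 2.46 (SE 0.18) and the phospholipase Pla2g5 by 2.45 (SE 0.17). Ces1d went on to 111 CPM at 1 month from 11.3 to 14.2 CPM at 2 weeks.

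The same interval was compared between genotypes in 12 hearts, with 3 Lmna-/- hearts at each age, as the interaction of genotype and age. Lmna itself was at 25.6, 36.6 and 72.4 CPM in the Lmna-/- hearts of 1 week and at 64.6, 44.1 and 43.7 CPM in those of 2 weeks, against 119 to 154 CPM in WT hearts, and reads outside the deleted part of the gene can remain. Replicates 2 and 3 of the 1-week Lmna-/- hearts held transcripts of other tissues. Lung and liver markers summed to 0.275, 334 and 48.9 CPM in the 3 hearts, and Ucp1 had 0, 1781 and 434 counts. Replicate 2 also had 1118 counts of Myh1, a gene of the skeletal muscle list. Of 12188 genes tested 7 (0.0574%) differed in their age difference by the edgeR QL test with BH adjustment, 6 with the larger value in Lmna-/- hearts, and 1087 had an unadjusted p under 0.05. DESeq2 called 84. Nr4a2, an early response nuclear receptor, was at 3.72, 7.58 and 3.91 CPM and then 2.60, 1.59 and 4.05 CPM in WT hearts and at 4.41, 4.10 and 4.09 CPM and then 41.7, 32.3 and 34.8 CPM in Lmna-/- hearts (interaction 3.91, SE 0.41, adjusted p = 0.00341). The WT values overlapped between ages while the Lmna-/- values were far apart. Gem and Fosl2, a GTPase and a transcription factor of early responses, had interactions of 2.84 (SE 0.41) and 1.98 (SE 0.31), Ogdhl, related to a subunit of oxoglutarate dehydrogenase, 1.74 (SE 0.26) and Errfi1, an inhibitor of epidermal growth factor receptor signals, 1.11 (SE 0.17). The small RNA Gm24187 was at 3.11 (SE 0.49) and the RNA component Rmrp, whose bases all lie within Ccdc107, at −2.13 (SE 0.32).

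None of the maturation genes described above was among the 7, and for the cell cycle this turned on 1 Lmna-/- heart and on the test. The 36 genes of the mitosis list tested had a median age difference of −1.48 in WT and −3.36 in Lmna-/- hearts and a median interaction of −1.91. By edgeR 0 of them were called (36 had an unadjusted p under 0.05), and by DESeq2 8 were called, all lower in Lmna-/- hearts. Sums of the list were 1055, 2602 and 3814 CPM in Lmna-/- hearts at 1 week and 284, 382 and 284 CPM at 2 weeks. In this sum replicate 1 of 1 week stood apart from the other 2. Without that heart 181 genes were called, 37 higher and 144 lower, among them 35 of the 36 mitosis genes (median −2.26), 12 of 28 histones and 8 of 43 genes of DNA replication. Without replicate 3 of the same group, the heart with the highest Lmna of its group, 6 genes were called and 0 of the mitosis list (median −1.46). Tnni1 had an interaction of −0.14 (SE 0.49) and Cox6a2 of 0.30 (SE 0.14), neither of them called.

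**Figure D5:**
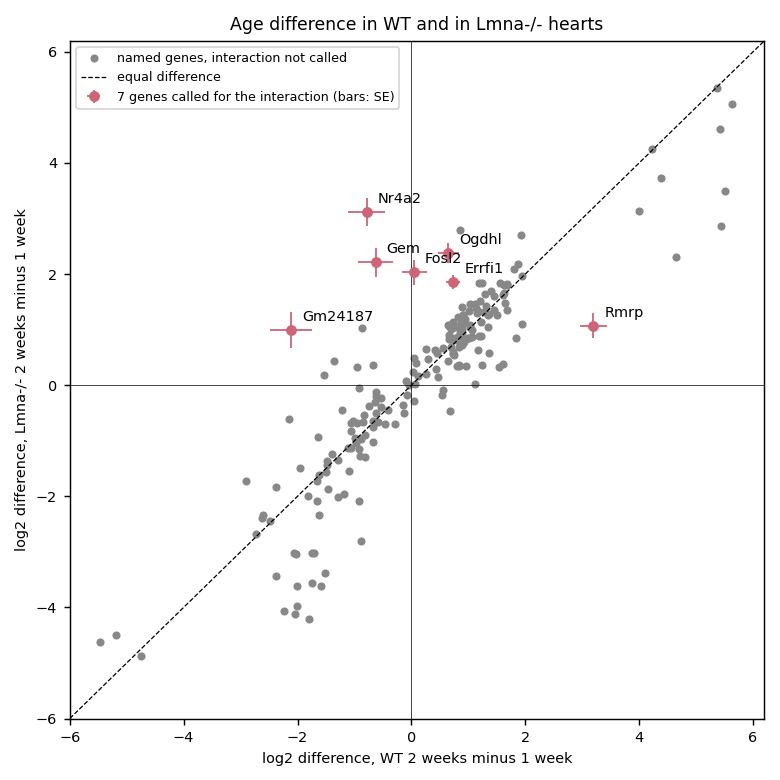
Log2 difference between 2 weeks and 1 week in Lmna-/- hearts (vertical axis) against that in WT hearts (horizontal axis), for 200 named genes without a call for the interaction (grey) and the 7 called genes (red, bars give the SE), with the dashed line where both are equal. Nr4a2 lies at 3.12 in Lmna-/- hearts and −0.79 in WT hearts, and Rmrp at 1.07 and 3.20.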

How the data were processed

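Whole hearts of WT mice were rinsed in cold saline, RNA with an integrity number above 8 was used for stranded total RNA libraries after depletion of ribosomal RNA, and paired reads of 100 bases were sequenced. Per the study's methods, the authors aligned reads with STAR and deposited raw counts of uniquely mapped reads on collapsed gene models, reads of ambiguous origin excluded, 1 table per age. The submitters' processing notes name mm10 and STAR 2.3.1d, while the methods name another release of STAR. The counting program, its annotation, its use of strand and the sex of the mice are not given in the sources used here. Every column of counts was mapped to a sample by its name.

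The tables of both ages were joined by gene identifier, and 46574 identifiers (98.9%) matched GENCODE M21 (GRCm38), which gave biotypes and positions. Genes of the mitochondrial genome and processed pseudogenes were left out before library sizes were summed (3923694 to 10292723 counts). Genes above 5 counts in each heart were normalized with TMM and tested with edgeR 4.0.16 (R 4.3.3), by the quasi-likelihood F-test of age with BH adjustment at 0.05. The SE is the log2 difference divided by the square root of F. The interaction of genotype and age was tested in the same way over 12 hearts. DESeq2 1.42.0, other scalings and filters, a replicate block and the omission of each heart were alternatives, as was a test against 1.5-fold. Functions were tested on simulated data first. Isoform shares used counts per kilobase of exon and an exact permutation test.

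Members and gene lists (39 of functions, 18 of cell types) were chosen with earlier results of these data known. Genes were named by rule: the 10 largest non-overlapping rises and falls with a mean CPM of at least 1, up to 4 DEGs per function list, fixed anchor genes, the isoform pairs and the 3 leading interaction genes per direction. Other genes, members of cell type lists among them, were named after their values were seen. Sequence sharing is the share of 30-base words of a gene's longest transcript found in transcripts of processed pseudogenes, with 10% as the limit.
Results for some genes are not reported here.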

Additional observations from a re-analysis of the deposited data

Results flagged for a closer look

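The difference between 2 weeks and 1 week was unequal in WT and Lmna-/- hearts for 7 genes by the interaction term of edgeR's QL test over 12 hearts (BH-adjusted p = 0.00341 for Nr4a2 and 0.0418 for the others), with 0.0574% of 12188 genes called. Nr4a2 had the largest value, 3.91 (SE 0.41), from −0.79 in WT and 3.12 in Lmna-/- hearts, and it alone was called in each of the fits that left out a 2-week Lmna-/- heart. The values were 3.11 for Gm24187, 2.84 for Gem, 1.98 for Fosl2, 1.74 for Ogdhl and 1.11 for Errfi1, all larger in Lmna-/- hearts. Rmrp had the opposite sign (−2.13), from 8.54, 7.03 and 13.3 CPM to 76.9, 96.5 and 89.6 CPM in WT hearts, and stood at 5.73 CPM in WT hearts of 1 month. Without the 1-week Lmna-/- replicate 2, whose lung and liver markers summed to 334 CPM, 6 genes were called, 1 of them among these 7.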

How the results depend on the processing

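Counts of DEGs stayed within 1.5 times of 4954 with DESeq2 (4074), its size factors, GC correction, other count filters, processed pseudogenes kept in, Xist reads as a covariate, robust dispersions, 1 fit over 18 hearts and, chosen after seeing the data, without both replicates 2 (4955) or genes that share sequence (4568). Leaving out 1 heart gave 3874 to 5300, with 1882 to 2483 higher and 1966 to 2817 lower. Scaling by library totals alone gave 1497 higher and 4031 lower. An adjusted p under 0.01 left 3251 (1549 higher, 1702 lower), and a test against 1.5-fold 840 (401 and 439), both by construction. The median turned to −0.034 for glycolysis, −0.035 for the circadian clock, −0.048 for adrenergic signalling, −0.026 for angiogenesis and −0.015 for fibroblast markers with library totals alone. It turned to −0.54 for brown fat, −0.94 for white fat and −0.39 for Schwann cells and neurons with no filter on counts, where more members enter. For cardiac transcription factors it was −0.094 to 0.015 when 1 heart was left out (0.015 without the 1-week replicate 2) and 0.038 without both replicates 2, and for neutrophils and mast cells −0.39 to 0.28 (0.28 without the 1-week replicate 1). Of the values of named genes over these settings 4457 kept direction and side of the threshold, 178 lost and 42 gained the call, and none reversed. Slc2a1, Cry1 and H2-Eb1 lost it in 5 of 6 fits that left out 1 heart. Isoform shares were repeated with GC correction, with coding length and without each heart. Of their differences between ages 90 stayed within the SD of hearts and 6 moved beyond it. The interaction gave 84 genes with DESeq2, 1 with the replicate block, 4 with GC correction, 21 in a fit over 18 hearts and 1 to 181 with 1 heart left out, 181 without the Lmna-/- 1-week replicate 1. The other causes were not tested. Hearts that share a replicate number deviated together little (correlations of 0.0287 to 0.0371). Correlations of hearts with different numbers were −0.0309 to −0.00144. With 3 hearts per age these values cannot decide whether the numbers pair the hearts. The fit with the replicate block gave 4961 DEGs. Depth limited tests to genes above the count minimum, which left thymus and several fetal genes as counts.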

Other observations

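WT hearts of 1 month, which stood in a separate table and entered tests only in an alternative fit over 18 hearts, carried several of these lists further in the same direction. Each member's mean was expressed as a percentage of its 1-week mean, and the median over members is given as a description. The mitosis list was at 36.4% at 2 weeks and 5.49% at 1 month, with all 40 genes below their 2-week mean. Replication histones went from 55.7% to 7.96% (31 of 31 lower still), DNA replication from 52.4% to 19.5% (45 of 45) and imprinted growth genes from 62.9% to 38.4% (21 of 23). The 3 tested MHC class II genes were at 279.8% and then 980.3% and the interferon list at 147% and then 208%, with 22 of 26 members above their 2-week mean.

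Other lists took different courses. Complex IV was at 175% at 2 weeks and 128% at 1 month, with 11 of 15 genes lower at 1 month, and fatty acid oxidation at 143% and 136%. Cholesterol and lipid synthesis was at 58.8% and then 71.2%. Endocardial markers had a median of 71.5% and then 107%, with 3 of 8 below their 2-week mean, while the sum of the list was 1323 CPM ± 69.99 (SD, n = 3) at 2 weeks and 613 CPM ± 80.6 at 1 month. Use of ketone bodies and branched-chain amino acids went on from 132% to 207%, with 19 of 23 genes higher at 1 month.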
